A study of Sus scrofa with 8 samples.

Results

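Cytochrome P450 genes outside the CYP1 family were examined in the livers of young and old sows. The members were the rows of the mRNA table whose Ensembl pig symbol starts with CYP and a digit, without those starting with CYP1A or CYP1B. This rule gave 23 of the 21607 mRNA rows, of which 11654 have a symbol. The 4 RNA-seq libraries came from healthy female pigs of the Chinese Yana breed, 2 young sows of 180 days and 2 old sows of 8 years, each giving 1 library of whole liver tissue. The sows were not related to each other and went without food on the night before slaughter, and their labels name no treatment and no allele. The ages are those of puberty and of the end of reproductive life, so reproductive stage and years cannot be told apart, and 2 libraries per group limit what any comparison can show. In the name table used here, which is of another build, 37 P450 symbols occur. For 12 of them the identifier has no mRNA row, among them CYP2B6B, CYP2C42, CYP2C49, CYP3A29, CYP4A21 and CYP4A24. Such genes may have a row under an older identifier without a symbol, which could not be named. Those genes were not analysed here, so the members cover only part of the drug-metabolizing P450 enzymes of pig liver. CYP8B1 is not among the 37 symbols, so the P450 genes of bile acid synthesis are not covered in full either.

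P450 enzymes are heme proteins, mostly of the endoplasmic reticulum and some of mitochondria, that insert an oxygen atom into their substrates with electrons passed on by partner proteins. In hepatocytes they convert cholesterol into bile acids, build cholesterol, inactivate retinoic acid and vitamin D, and make drugs and other foreign compounds more soluble. Their amounts in liver are known to depend on nuclear receptors, feeding, inflammation and the time of day.

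Values are given as CPM, the reads of a row scaled by 1 constant per library, and the total behind that constant is not stated. No gene length enters them, so a row's level is compared between libraries and not with that of another gene. The mRNA rows held 37555694 and 37125093 reads in young replicates 1 and 2 and 22482241 and 24866406 reads in old replicates 1 and 2. Rows above 0 were nevertheless more numerous in the old libraries, at 17262 and 16978 against 15230 and 14291 in the young ones. Members with few reads in old livers and 0 in young livers are to be read beside these counts. A row with at most 3 reads (0.0327 to 0.0487 CPM, by library) was called at the limit of detection. This limit covers counting error alone, since PCR reads are not independent molecules. Of the 23 members, 13 were above that limit in all 4 libraries and 5 in none. A mean of at least 1 CPM over the 4 libraries was reached by 12 members, and these carry most of what follows.

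The label of the tissue was checked with hepatocyte markers. All 12 hepatocyte markers with a row were above 0 in every library, with a summed level from 35391.8 CPM in old replicate 1 to 58637.4 CPM in young replicate 2. None passed the adjusted threshold in limma, 3 of them (ALB, APOB and CPS1) were lower in both old livers than in both young livers, beside 32.8% of all rows with a mean of at least 1 CPM, and the median log2 fold change of the 12 was -0.36. CYP2E1, an ethanol-oxidizing enzyme of hepatocytes, was at 850.4 CPM or more in every library, whereas CYP7A1, the rate-limiting enzyme of bile acid synthesis, ranged from 0.829 to 34.7 CPM. In whole tissue, fewer cells of a type and less RNA per cell cannot be told apart.

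The bile acid genes differed in pattern, with CYP7B1 and CYP39A1 lower in both old livers, CYP7A1 split between the old livers and CYP27A1 level. No one of them passed the adjusted threshold. CYP7A1 (ENSSSCG00000006238), which starts the main route of bile acid synthesis from cholesterol, was at 2.72 and 12.0 CPM for young sows (250 and 1036 reads) against 0.829 and 34.7 CPM for old sows (51 and 2495 reads). The old livers thus lay on either side of both young livers, 41.9-fold apart, and the young livers were 4.40-fold apart. The log2 fold change between old and young livers on log2(CPM + 1) was 0.22 (95% interval -5.33 to 5.77, adjusted p = 0.969, limma), an interval that takes in both directions. It was -1.93 without old replicate 2 and 2.36 without old replicate 1, and on recovered reads it was 1.45 in the exact test of edgeR and 1.42 in DESeq2.

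CYP7B1 (ENSSSCG00000022092), an oxysterol hydroxylase of the alternative bile acid route, was at 11.3 and 11.5 CPM for young sows against 2.60 and 7.20 CPM for old sows. CYP39A1 (ENSSSCG00000001718), another oxysterol hydroxylase, was at 16.6 and 10.5 CPM for young sows against 2.71 and 5.60 CPM for old sows. For both genes the age groups did not overlap, and old replicate 1 had the lowest value. The log2 fold change of CYP39A1 was -1.52 (standard error 0.42, 95% interval -2.80 to -0.25, unadjusted p = 0.0313, adjusted p = 0.275, limma), and with 1 library left out it lay between -1.94 and -1.11. With 1 library left out, its unadjusted p-value was under 0.05 only in the fit without old replicate 2. That of CYP7B1 was -1.19 (standard error 0.48, 95% interval -2.64 to 0.26, adjusted p = 0.377, limma), and it was -0.60 without old replicate 1 and -1.79 without old replicate 2. In mean CPM, CYP39A1 was 3.26-fold and CYP7B1 2.33-fold higher in young livers.

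CYP27A1, the mitochondrial sterol hydroxylase that opens the alternative route, did not follow these genes. Its values were 2.97 and 2.30 CPM in the young livers and 2.63 and 2.42 CPM in the old livers, a log2 fold change of -0.04 (95% interval -0.50 to 0.43, limma). The old livers fell inside the range of the young livers. CYP46A1, the cholesterol hydroxylase best known from brain, had at most 3 reads in any library. In the panels of single genes, CYP7B1 and CYP39A1 stand lower in both old livers, while the old points of CYP7A1 lie far apart.

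**Figure D1:**
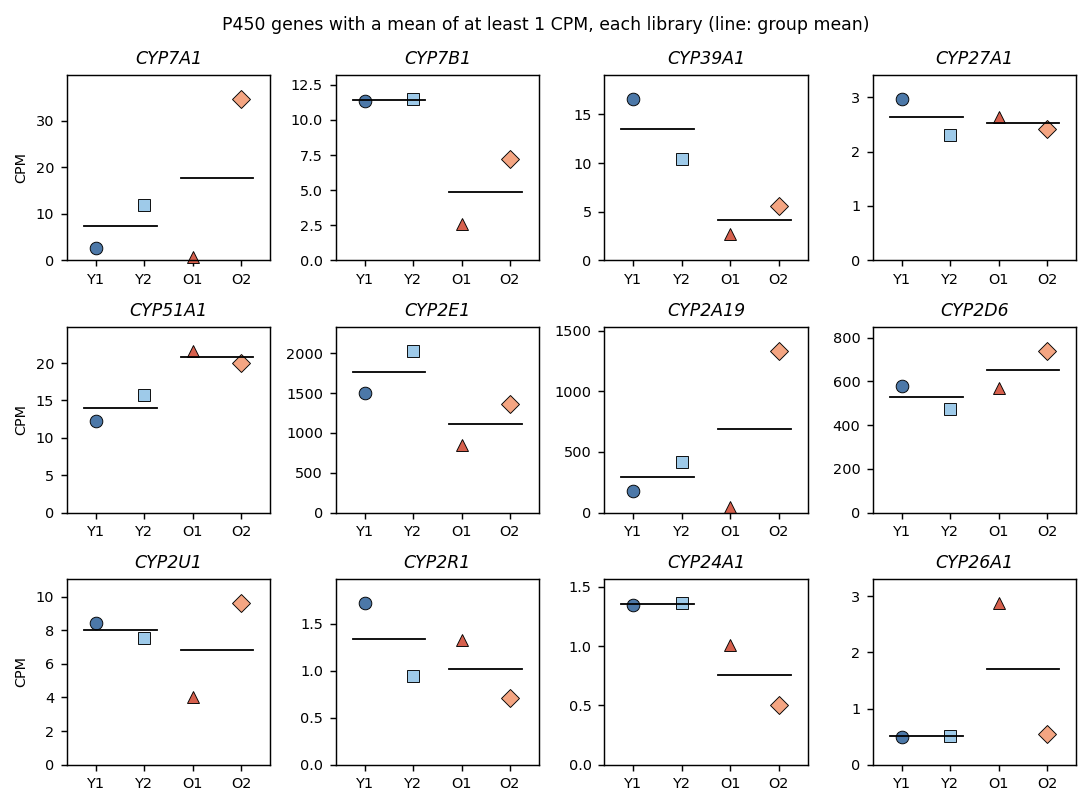
Level in CPM (vertical axis, from 0) of the 12 P450 genes with a mean of at least 1 CPM in young replicates 1 and 2 (Y1, Y2) and old replicates 1 and 2 (O1, O2). Each point is 1 library and each line the mean of 2 libraries. In these CPM without rescaling, CYP7B1, CYP39A1, CYP2E1 and CYP24A1 are lower in both old livers than in both young livers. CYP51A1 and CYP26A1 are higher, and CYP7A1 and CYP2A19 are lowest in O1 and highest in O2.

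Of a list of 10 bile acid synthesis genes outside the P450 family, 5 had a row. All 5 had a lower mean in old livers. Without rescaling, 4 were lower with no overlap between the age groups, beside 32.8% of all rows with a mean of at least 1 CPM. With TMM factors, which raise old against young values by 0.20 on the log2 scale, AKR1D1 and HSD17B4 would overlap. None of the 5 passed the adjusted threshold in limma. At an unadjusted p-value under 0.05, 2 were lower in limma, beside 8.93% of all rows tested, and the median log2 fold change was -0.74. AKR1D1, the reductase that acts on the sterol ring after CYP7A1, was at 246 and 277 CPM for young sows, 21.0 CPM in old replicate 1 and 230.1 CPM in old replicate 2. Old replicate 1 was lowest for AKR1D1 as for CYP7A1. Old replicate 2, highest for CYP7A1, lay below both young livers for AKR1D1 in CPM without rescaling. ACOX2, the oxidase that shortens the side chain of bile acid precursors, was at 95.5 and 91.7 CPM for young sows against 56.8 and 54.4 CPM for old sows (log2 fold change -0.74, standard error 0.11, adjusted p = 0.213, limma).

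NR0B2, which encodes SHP, a repressor of CYP7A1 that bile acids induce, was at 9.92 and 4.56 CPM for young sows against 68.7 and 37.3 CPM for old sows. Its log2 fold change was 2.73 (standard error 0.52, with adjusted p = 0.230, limma), and both old livers were above both young livers, including old replicate 2 with its high CYP7A1 level. NR1H4, the bile acid receptor FXR, was at 22.0 and 21.3 CPM for young sows against 16.8 and 14.2 CPM for old sows. NR5A2, an activator of CYP7A1, was at 4.20 and 4.47 CPM and at 2.42 and 3.04 CPM, again without overlap. The receptor FGFR4 and its partner KLB, through which gut hormone lowers CYP7A1, overlapped between the age groups.

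**Figure D2:**
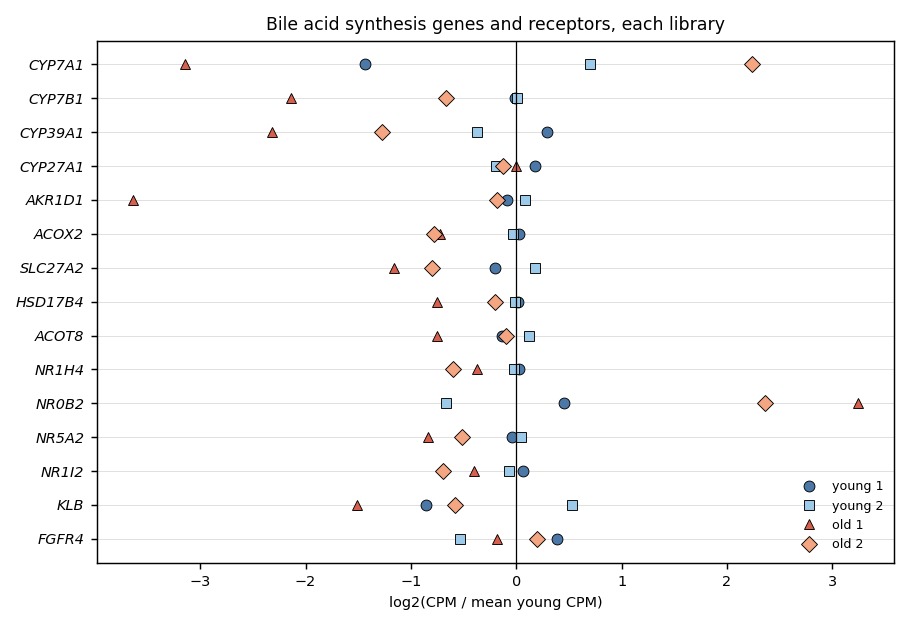
log2 ratio of the CPM in each library to the mean of the 2 young livers (horizontal axis) for P450 genes of bile acid synthesis, other enzymes of the pathway and receptors that act on it, 1 symbol per library. CYP7A1 spreads over the widest range, with old replicate 1 at 0.113 and old replicate 2 at 4.73 times the young mean, and both old livers lie to the right for NR0B2.

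CYP51A1 (ENSSSCG00000015311), the sterol demethylase of cholesterol synthesis, was the only member with an unadjusted p-value under 0.05 and a higher level in old livers in limma. It was at 12.2 and 15.7 CPM for young sows against 21.6 and 20.03 CPM for old sows. The log2 fold change was 0.55 (standard error 0.17, 95% interval 0.02 to 1.08, unadjusted p = 0.0447, adjusted p = 0.305, limma). The difference of 1.49-fold in mean CPM was larger than the spread within each group, and with 1 library left out the log2 fold change lay between 0.39 and 0.72. Its unadjusted p-value stayed under 0.05 with both other scalings and with rows above 0 in at least 1 library. It did not with another pseudocount, with rows of a mean of at least 1 CPM, with a trended robust variance, with a replicate block, in edgeR or in DESeq2, and with 1 library left out it did only without young replicate 2.

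Among the enzymes of drugs and other foreign compounds, CYP2A19 (ENSSSCG00000002993), the pig form of the CYP2A enzymes that oxidize nicotine and coumarin, was split like CYP7A1. It was at 176 and 417 CPM for young sows, at 48.6 CPM in old replicate 1 and at 1333 CPM in old replicate 2. These values rest on 2990 reads in old replicate 1 and 95773 in old replicate 2, so counting error is small beside the 27.4-fold difference between the old livers. The libraries took the same order as for CYP7A1, with old replicate 1 lowest and old replicate 2 highest. That order of the 4 libraries was found in 3.23% of rows with a mean of at least 1 CPM. The log2 fold change was -0.08 (95% interval -5.93 to 5.77, adjusted p = 0.990, limma), 2.29 without old replicate 1, -2.46 without old replicate 2, 0.12 with TMM scaling, 1.41 in the exact test of edgeR and 1.38 in DESeq2.

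CYP2E1 (ENSSSCG00000010780), which oxidizes ethanol and paracetamol, was at 1503 and 2028 CPM for young sows against 850.4 and 1365 CPM for old sows. In CPM without rescaling the groups did not overlap, but old replicate 2 lay close to young replicate 1. With TMM factors the groups of CYP2E1 would overlap. Its log2 fold change was -0.70 (standard error 0.33, 95% interval -1.71 to 0.32, adjusted p = 0.439, limma). It was -0.36 without old replicate 1 and -1.04 without old replicate 2.

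CYP2D6 (ENSSSCG00000000046), a member of the family that oxidizes many basic drugs, did not separate the ages in CPM without rescaling. Its values were 580.4 and 476 CPM in the young livers and 569 and 739 CPM in the old livers, and the groups overlapped. The log2 fold change was 0.30 (95% interval -0.35 to 0.95, limma). It was 0.50 with TMM scaling (adjusted p = 0.404, limma), where both old livers would lie above both young livers. CYP2F1, the enzyme better known from lung, had 0 reads in both young livers and 2 and 4 reads in the old livers, and CYP2W1 had 1 read in old replicate 1 alone. Several CYP2 genes have near-identical copies, and how the counting divided shared reads is not given in the sources used here, so CYP2A19 and CYP2D6 may include reads of related genes.

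CYP2U1, a hydroxylase of long fatty acids, was at 8.43 and 7.54 CPM for young sows, at 4.05 CPM in old replicate 1 and at 9.61 CPM in old replicate 2. The old livers again lay on either side of the young ones, with a log2 fold change of -0.29 (95% interval -1.62 to 1.03, limma). CYP4B1 and CYP4F22, fatty acid hydroxylases better known from other tissues, were listed at 0 in both young livers and had 2 and 11 reads and 1 and 2 reads in the old livers. Their adjusted p-values in limma were 0.695 and 0.927, and no fold is given against livers at 0.

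Summed over its 7 members, the CYP2 family took 2270.3 and 2929 CPM in the young livers, 1474 CPM in old replicate 1 and 3448 CPM in old replicate 2. In young replicate 2 and old replicate 2 these sums were 0.683% and 0.996% of all mRNA CPM, and in young replicate 1 and old replicate 1 they were 0.555% and 0.403%. Longer genes weigh more in such a sum. The log2 ratio of old to young means was -0.08, and it was 0.12 with TMM scaling and -0.82 without old replicate 2. For the 2 members of the CYP7 family the sums were 14.1 and 23.5 CPM in the young livers and 3.43 and 41.9 CPM in the old livers.

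**Figure D3:**
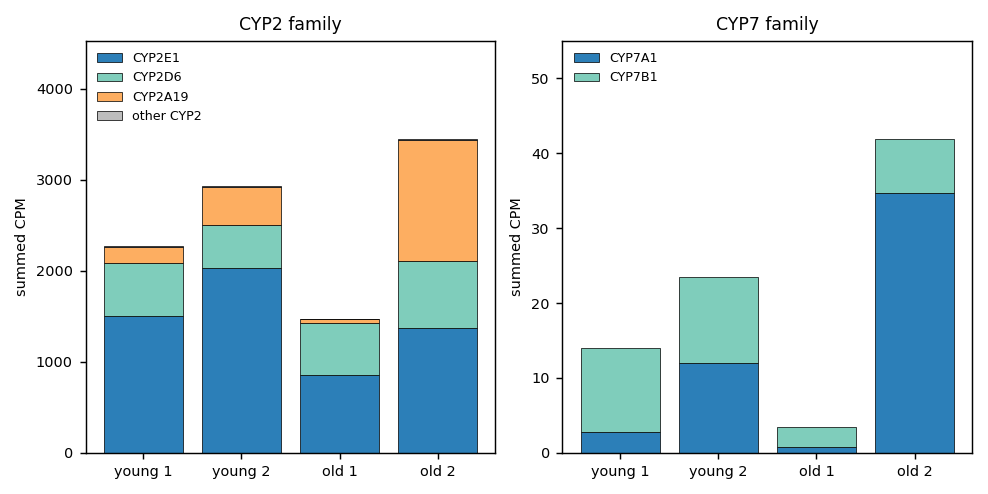
Summed CPM of the CYP2 family (left) and of the CYP7 family (right) in each library, with bars from 0 stacked by gene. The CYP2 sums run from 1474 CPM in old replicate 1 to 3448 CPM in old replicate 2, and the CYP7 sums from 3.43 to 41.9 CPM in the same libraries.

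Genes of vitamin D metabolism were at low levels. CYP24A1 (ENSSSCG00000007486), which breaks down active vitamin D, was at 1.35 and 1.36 CPM for young sows (124 and 118 reads) against 1.01 and 0.501 CPM for old sows (62 and 36 reads). The groups did not overlap, and the log2 fold change was -0.44 (standard error 0.20, 95% interval -1.04 to 0.15, adjusted p = 0.411, limma). CYP2R1, the vitamin D hydroxylase of liver, overlapped between the groups with 1.72 and 0.947 CPM in the young and 1.33 and 0.710 CPM in the old livers. CYP27B1, the activating enzyme known mainly from kidney, was at 0.613 to 1.005 CPM in the 4 livers, also with overlap.

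The CYP26 enzymes break down retinoic acid. CYP26A1 (ENSSSCG00000010475), the main liver form, was at 0.490 and 0.520 CPM for young sows, at 2.88 CPM in old replicate 1 and at 0.543 CPM in old replicate 2. The groups did not overlap by a small margin, but only old replicate 1 stood clearly apart, with 177 reads against 45, 45 and 39 in the other livers. Its log2 fold change of 0.70 (95% interval -0.92 to 2.32, adjusted p = 0.610, limma) was 0.04 without old replicate 1, 1.36 without old replicate 2, 1.95 in both edgeR tests and 1.93 in DESeq2. CYP26B1 had 3 and 0 reads in the young livers and 14 and 29 reads in the old livers. The old libraries were less deep but had more mRNA rows above 0 (17262 and 16978 against 15230 and 14291). Its young values were at the limit of detection, so no fold is given, and the adjusted p-value was 0.343 in limma, 0.305 in the exact test of edgeR and 0.239 in DESeq2. CYP26C1 had 2 reads in old replicate 2 alone.

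The members of steroid hormone synthesis were at or near the limit of detection, apart from CYP11A1 in 1 young liver. These enzymes are known mainly from the adrenal gland and the gonads. CYP17A1 had at most 3 reads and CYP21A2 at most 4 in any library. CYP11A1, which starts steroid synthesis from cholesterol, had 26 reads in young replicate 2 and 2 reads in old replicate 1, with 0 reads elsewhere. No difference by age was detectable for these 3 genes at this depth, with adjusted p-values from 0.728 to 0.998 in limma.

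In the test across all genes, 21 of the 23 members were above 0 in at least 2 libraries and entered limma, and CYP2W1 and CYP26C1 did not. A call needed an absolute log2 fold change above 1 and an adjusted p-value under 0.05. No member was called, and neither was any of the 16898 rows tested (0.00%). The smallest adjusted p-value was 0.275 among members and 0.213 among all rows. At an unadjusted p-value under 0.05 there was 1 member lower (CYP39A1) and 1 higher (CYP51A1) in old livers, beside 8.93% and 6.78% of all rows. A single value in 2 against 2 libraries cannot give an exact two-sided permutation p-value below 0.333.

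On whole reads recovered from the values, the exact test of edgeR, which the study used, called 2.36% of all rows and DESeq2 called 5.21%, and neither called a member. The smallest adjusted p-value of a member was 0.305 with the exact test and 0.122 with DESeq2, the latter for CYP39A1, and 8 members had no adjusted p-value in DESeq2. The quasi-likelihood test of edgeR called 0 rows of all rows and no member. At an unadjusted p-value under 0.05 it gave 4 members (CYP39A1, CYP26B1, CYP4B1 and CYP2F1). The exact test gave 3 (without CYP2F1) and DESeq2 gave 2 (CYP39A1 and CYP26B1). Of the 16898 rows tested, the quasi-likelihood test gave 1954 higher and 520 lower at that level. The exact test gave 1551 higher and 358 lower, and DESeq2 gave 1696 higher and 757 lower.

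The median log2 fold change of the 21 members tested was -0.01, beside -0.02 for all rows tested. Of the 21, 12 were lower by fold, so the median lies among these. Setting the 4 members listed at 0 in both young livers to the limit of detection could not change it. Their fold changes were kept at 0 or above. Among the 12 members with a mean of at least 1 CPM, it was -0.14, beside -0.15 for the 9798 such rows. The medians of the members and of the table thus differed by 0.01, and single members lay on both sides of them. Rescaling with TMM factors raised old against young values by 0.20 on the log2 scale, and no member in limma passed the threshold with it.

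Of these 12 members, without rescaling, 4 were lower in both old livers than in both young livers (CYP7B1, CYP39A1, CYP2E1 and CYP24A1), beside 32.8% of such rows. Another 2 were higher (CYP51A1 and CYP26A1), beside 17.8%. These shares are near the background. With TMM factors CYP2E1 would overlap between the groups, and CYP2D6 would be higher in both old livers. The thin and thick lines in the plot of fold changes show how wide the intervals remain with 2 libraries per group.

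**Figure D4:**
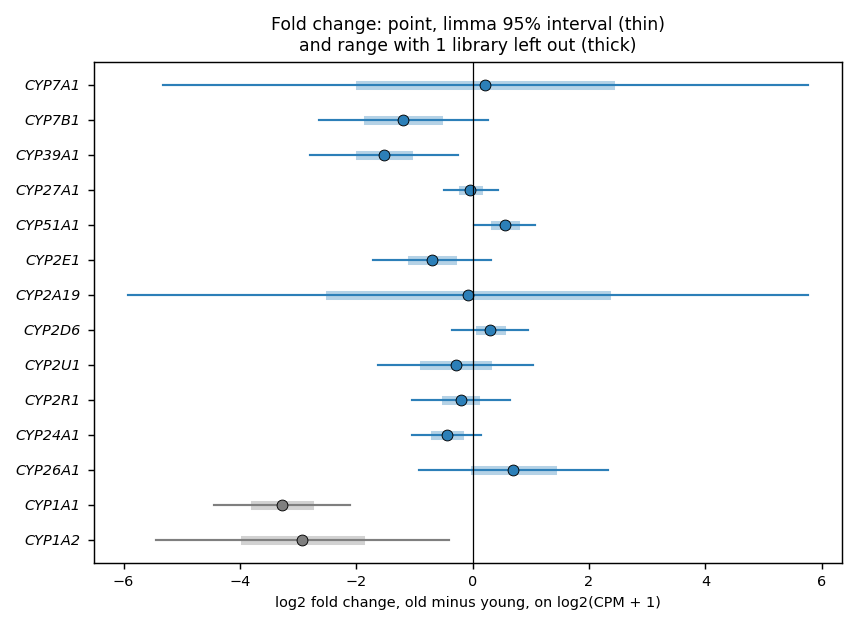
log2 fold change between old and young livers on log2(CPM + 1) (horizontal axis) for the 12 P450 genes with a mean of at least 1 CPM and, in grey, for CYP1A1 and CYP1A2. Points are limma estimates, thin lines 95% intervals and thick lines the range with 1 library left out. CYP7A1 and CYP2A19 have intervals of more than 5 log2 units to each side, and of the members the intervals of CYP39A1 and CYP51A1 alone leave out 0.

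The old livers were next set against the young livers separately. Old replicate 1 was below both young livers for 7 of the 12 members (45.8% of all such rows). Old replicate 2 was below both for 5 (47.0%) and above both for 6 (28.1%). Old replicate 2 exceeded old replicate 1 by more than 2-fold for 5 members (11.8% of rows), which were CYP7A1, CYP2A19, CYP7B1, CYP2U1 and CYP39A1. The opposite was found for CYP26A1 and CYP24A1 (12.4%). Between the young livers a difference of more than 2-fold was seen for CYP7A1 and CYP2A19 (21.3% of rows).

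**Figure D5:**
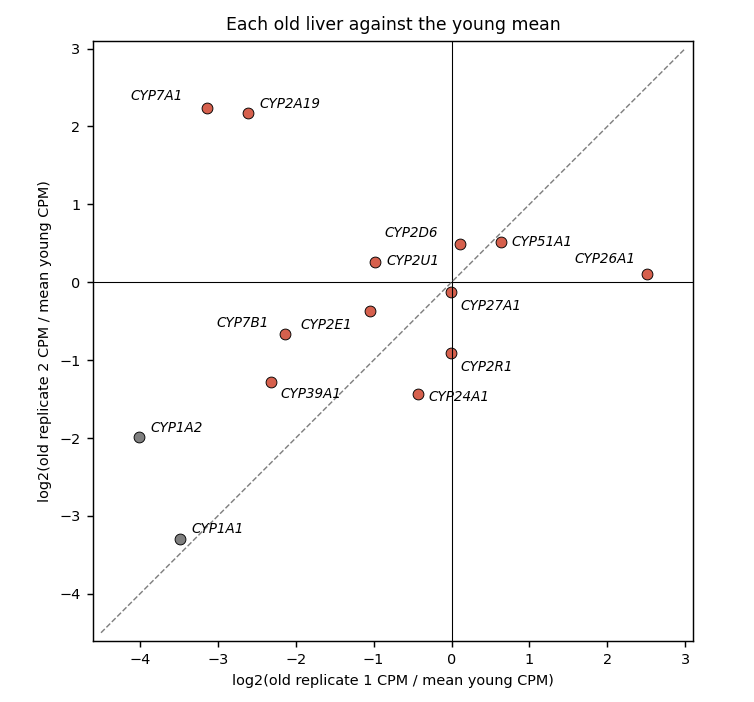
log2 ratio to the young mean in old replicate 1 (horizontal axis) and in old replicate 2 (vertical axis) for the 12 P450 genes with a mean of at least 1 CPM and, in grey, for CYP1A1 and CYP1A2. Equal ratios lie on the dashed line. CYP7A1 and CYP2A19 are in the upper left, at 0.113 and 0.164 times the young mean in old replicate 1 and at 4.73 and 4.50 times in old replicate 2, while both CYP1A genes lie in the lower left.

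The CYP1A genes, left out by the rule, were low in both old livers. CYP1A1, an enzyme induced through the aryl hydrocarbon receptor, was at 218 and 415 CPM for young sows against 28.3 and 32.2 CPM for old sows. CYP1A2 was at 339 and 554 CPM and at 27.7 and 112 CPM. Both were lower in each old liver than in each young liver, with log2 fold changes of -3.27 (95% interval -4.44 to -2.10) and -2.93 (95% interval -5.45 to -0.40) in limma, where neither was called (adjusted p = 0.213 and 0.282). CYP1A1 was called by the exact test of edgeR (adjusted p = 0.000834) and by DESeq2 (adjusted p = 7.49e-08), and CYP1A2 by DESeq2 alone (adjusted p = 0.0257). The intervals of CYP1A1 and CYP39A1 overlapped, and the difference between CYP1A genes and members was not tested.

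Electron donors and other partners of P450 enzymes were taken from a list of 9 genes, of which 5 had a row. POR, CYB5B, FDX1 and FDX2 had no row, so the electron supply was covered only in part. Of the 5, none passed the adjusted threshold, and 1 was lower at an unadjusted p-value under 0.05 in limma, beside 8.93% of all rows tested. This was CYB5A, cytochrome b5, at 289 and 303 CPM for young sows against 160.0 and 159 CPM for old sows (log2 fold change -0.89, standard error 0.11, adjusted p = 0.213, limma). CYB5R3, the reductase of cytochrome b5, was at 8.66 and 8.83 CPM and at 13.0 and 31.8 CPM. PGRMC1, a heme-binding partner, overlapped between the groups.

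Heme is the cofactor of every P450 enzyme. Of 12 genes of heme synthesis and breakdown, 10 had a row, with a median log2 fold change of -0.31. In limma, 0 had an unadjusted p-value under 0.05, beside 6.78% of all rows tested that were higher and 8.93% lower. ALAS1, the rate-limiting enzyme of heme synthesis in liver, was at 42.5 and 1.05 CPM for young sows against 33.8 and 14.7 CPM for old sows, so its spread lay within the young group and not between the ages.

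Of 20 nuclear receptors and other factors that act on P450 genes, 18 had a row. None passed the adjusted threshold in limma. At an unadjusted p-value under 0.05 in limma, 2 were higher (NR0B2 and NR1H2), beside 6.78% of all rows tested. At the same level 3 were lower (NR1I2, NR1H4 and NR5A2), beside 8.93%. NR1I2, the drug sensor PXR, was at 25.9 and 23.5 CPM for young sows against 18.8 and 15.2 CPM for old sows. NR1I3, the drug sensor CAR, overlapped with 25.9 and 67.3 CPM in the young livers and 20.4 and 39.6 CPM in the old livers. In all, 7 of the 18 were higher and 3 lower in both old livers than in both young livers, beside 17.8% and 32.8% of rows with a mean of at least 1 CPM, and the 7 include VDR, which was near the limit of detection. HNF4A, a main regulator of hepatocyte genes, overlapped between the ages.

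Other gene lists stood apart in single libraries, although none of their genes passed the adjusted threshold in limma. The summed level of 17 interferon-stimulated genes (of a list of 25) was 91.8 and 101.0 CPM in the young livers, 2076.2 CPM in old replicate 1 and 68.1 CPM in old replicate 2. Of these genes, OASL alone was at 0 in a library, young replicate 2. Of the 12 members with a mean of at least 1 CPM, 6 were lowest in old replicate 1 (CYP7A1, CYP7B1, CYP39A1, CYP2A19, CYP2E1 and CYP2U1). Another 2 were highest there (CYP26A1 and CYP51A1). That liver was below both young livers for 45.8% of all such rows. A link between these values and the interferon-stimulated genes was not tested. For 7 acute phase genes (of 14), none at 0, the sums were 11106.9 and 6663.5 CPM for young sows, 15232.0 CPM for old replicate 1 and 4948.1 CPM for old replicate 2. FGB made up most of each sum. At an unadjusted p-value under 0.05 in limma, 1 of the 7 was lower (CRP) and 1 higher (LCN2), beside 8.93% and 6.78% of all rows tested. CRP, the C-reactive protein gene, was at 360.3 and 217 CPM for young sows against 36.7 and 11.9 CPM for old sows (log2 fold change -3.67, adjusted p = 0.228, limma). LCN2 was at 0.719 and 0.393 CPM for young sows against 1.71 and 1.99 CPM for old sows (log2 fold change 0.88, adjusted p = 0.23, limma).

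Of the markers of other liver cells, none passed the adjusted threshold in limma. The 5 macrophage markers with a row (of 9) summed to 231.9 and 253.7 CPM for young and 339.9 and 375.2 CPM for old sows, with none at 0, and 4 of the 5 were higher in both old livers, beside 17.8% of rows with a mean of at least 1 CPM. For T and NK cells, 6 rows (a list of 8 genes) summed to 8.8 to 18.5 CPM, highest in old replicate 1, with 1 GZMA row at 0 in both young livers. The summed markers of endothelial cells (4 of 8) lay between 30.4 and 66.2 CPM, highest in old replicate 1, and those of stellate cells and fibroblasts (6 of 8) between 14.6 and 50.6 CPM, highest in old replicate 2. Markers of cholangiocytes (4 of 6) summed to 7.5 to 19.0 CPM, lowest in old replicate 1 and highest in old replicate 2. Erythroid genes (3 of 6) summed to 306.0 to 621.5 CPM, and 4 of 10 skeletal muscle genes to 1.1 to 6.5 CPM, with MYL1 at 0 in 3 libraries. The part of these genes in the P450 values was not tested.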

How the data were processed

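RNA-seq was performed on rRNA-depleted RNA of 2 young and 2 old livers. The authors deposited CPM values under the name TPM. Per the study's methods, TopHat2 (2.0.14) served for alignment on Sscrofa10.2, StringTie (1.2.3) for assembly and Salmon (0.6.0) for quantification. At least 99.987% of the deposited CPM values above 0 were a whole number of reads (within 0.15 reads beside rounding) times 1 step per library, so whole reads were recovered by division. How reads shared by related genes were divided, and whether counting used strand, is not given in the sources used here. lncRNA, miRNA and circRNA tables were not used.

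Symbols came from a table of Ensembl identifiers. No coordinates are given, since the gene table at hand is of another build. Differential expression was tested with limma (3.58.1) on log2(CPM + 1) over the 16898 rows with a value above 0 in 2 or more libraries, adjusted by the Benjamini-Hochberg method. A call needed an adjusted p-value under 0.05 and an absolute log2 fold change above 1. edgeR (4.0.16) and DESeq2 (1.42.0) were run on recovered reads in R (4.3.3), and Python (3.11.15) was used otherwise. The scripts were tested on simulated data. The replicates are separate sows.

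The members, roles and gene lists were chosen with earlier results of these data known, so p-values adjusted over a list alone are not given. Every member may be named. Values per library were planned for CYP7A1, CYP2E1, members with a mean of at least 10 CPM, and members with a mean of at least 1 CPM and no overlap between the age groups. CYP27A1, CYP2U1, CYP2R1 and the genes with few reads were added to complete the roles. Alternatives were other pseudocounts, filters and scalings, a trended robust variance, a replicate block, other tests and each library left out in turn. Values of 1 marker list are not reported here.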

Additional observations from a re-analysis of the deposited data

How the results depend on the processing

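No member was called under any of the 15 alternatives run in addition to the reported limma analysis. The number of members with an unadjusted p-value under 0.05 was 2, and it was 4 with the quasi-likelihood test of edgeR, 1 with the replicate number as a block (CYP2E1) and from 0 to 5 with 1 library left out. The 5 were found without old replicate 2 (CYP26A1 higher, CYP2A19, CYP2U1, CYP39A1 and CYP7B1 lower), and without young replicate 1 there were 0. Among all rows tested, 1954 were higher and 520 lower at that level with the quasi-likelihood test, and 1065 and 1360 with the block. The counts with 1 library left out rest on a lone liver in 1 age group, so they cannot be read as many or few members. The member higher at that level was CYP26B1 and not CYP51A1 with a pseudocount of 0.1 or 0.5 and with a trended robust variance. The replicate numbers name unrelated sows, and same-numbered libraries deviated together with a correlation of 0.0902 across rows, so the block has no basis in the design. The median log2 fold change of the members tested (-0.01) was -0.05 and -0.03 with a pseudocount of 0.1 and 0.5, 0.00 with rows above 0 in at least 1 library, -0.14 with rows of a mean of at least 1, 0.03 with TMM and with median-of-ratios scaling, 0.14, 0.15 and 0.20 with the quasi-likelihood test, the exact test and DESeq2, and between -0.03 and 0.04 with 1 library left out. The direction of CYP2A19 (-0.08) turned to 0.12 with TMM and 0.09 with median-of-ratios scaling, to 1.41 with both edgeR tests and to 1.38 with DESeq2, and ranged from -2.46 to 2.29 with 1 library left out. CYP7A1 (0.22) turned to -0.04 with a pseudocount of 0.1, was 1.46, 1.45 and 1.42 with the quasi-likelihood test, the exact test and DESeq2, and ranged from -1.93 to 2.36. The log2 ratio of old to young sums was -0.08 for CYP2, 0.27 for CYP7, 1.97 for CYP26 and -0.08 for CYP27. With 1 library left out it ranged from -0.82 to 0.41 for CYP2 and from -2.45 to 1.16 for CYP7. For CYP26 it ranged from 0.90 to 2.57 and for CYP27 from -0.20 to 0.03. That of CYP27 was 0.12 with TMM and 0.10 with median-of-ratios scaling. The causes were not tested. The other members described (CYP7B1, CYP39A1, CYP51A1, CYP2E1, CYP2D6, CYP24A1 and CYP26A1) kept their direction under all alternatives. CYP27A1 (-0.04) was 0.11 with TMM scaling and 0.14 in edgeR, CYP2U1 (-0.29) was 0.24 without old replicate 1, and CYP2R1 (-0.20) was 0.04 without young replicate 1. With 1 library left out, 1 age group rests on a lone liver that is assumed to vary like the other group. Genes with few reads limit any statement on the CYP4, CYP11, CYP17, CYP21 and CYP46 families.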

Other observations

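Some rows that were not members also differed widely between the old livers. The following were chosen after their values were seen, among rows above the limit of detection in all 4 libraries, and other such rows are not listed. A row with no symbol (ENSSSCG00000022808) could not be named, so whether it is a P450 gene is not known here. It took the order of CYP2A19, at 278 and 670 CPM for young sows, 35.8 CPM in old replicate 1 and 1075 CPM in old replicate 2. SULT1A3, a sulfotransferase of phenols, had 232.1 and 233 CPM for young sows, 3.04 CPM in old replicate 1 and 173 CPM in old replicate 2. CA3, a carbonic anhydrase, stood at 7.08 and 7.34 CPM for young sows, 0.195 CPM in old replicate 1 and 25.5 CPM in old replicate 2. FOS, an immediate early gene, stood at 1.17 and 1.49 CPM for young sows, 9.95 CPM in old replicate 1 and 206 CPM in old replicate 2, so both old livers lay above the young ones.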
